A study of Mus musculus with 48 samples.

Results

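The sodium pump moves sodium out of the cell and potassium in at the cost of ATP. Each pump joins a catalytic alpha subunit to a glycosylated beta subunit, which the complex needs to fold and reach the plasma membrane, and small single-pass FXYD proteins bind the assembled pump and tune its ion affinities. In astrocytes the pump clears potassium released by active neurons, and the sodium gradient it builds drives glutamate uptake. The genes described here are the 3 beta subunit genes Atp1b1, Atp1b2 and Atp1b3 and the 3 regulator genes Fxyd1, Fxyd6 and Fxyd7, chosen by symbol from the 24421 genes of each table. They were followed in bulk RNA-seq of mouse astrocytes, each with 1 row in each of the 6 tables.

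Astrocytes came from 3 brain regions: cortex, hippocampus and olfactory bulb. For the developmental series no genotype is given in the labels, and the groups were postnatal day 1 (P1), P7 and P14, with 3 libraries in each group except cortex P14, which had 4. At P28 astrocytes of Gabbr1 control animals were set against those of Gabbr1 cKO animals, in which a GABA-B receptor subunit gene is the target: cortex had 4 control and 4 cKO libraries, hippocampus 2 and 4, and olfactory bulb 3 and 3. Tamoxifen is given as the treatment of control and cKO alike in hippocampus and olfactory bulb and in 3 cortex libraries, with the higher library numbers, and is not given for the other 5 cortex libraries; the driver of the deletion is not given in the sources used here. Values are normalized read counts, that is, reads divided by 1 size factor per library, scaled within each table, so that levels were compared within a table only. The labels do not say that the libraries of a group came from separate animals, so the p-values measure only the spread between these samples, which may be technical.

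The libraries held 1773226 to 15008466 reads, and the shallowest were those of olfactory bulb P14, where 1 read was worth 1.38 to 1.99 normalized counts. All 11 astrocyte markers had reads in every group. Their summed level in cortex was 10867 to 14733 at P1 and 62803 to 72683 at P14. In hippocampus it was 7721 to 8496 and then 65050 to 69853, and in olfactory bulb 3245 to 4780 and then 53782 to 64481. The summed level of 12 neuron markers was 6861 to 8237 in cortex at P1 and 1741 to 2076 at P14, with 4748 to 4933 and then 2172 to 2470 in hippocampus, and 8699 to 9705 and then 3411 to 3619 in olfactory bulb. The sum of 8 mature oligodendrocyte markers in cortex was 342 to 406 at P1 and 15364 to 26151 at P14. In hippocampus at P28, 8 choroid plexus markers summed to 71591 to 146841 in controls and 13755 to 131346 in cKO. The astrocyte sums of the same libraries were 29431 to 38354 in controls and 37642 to 63614 in cKO. The part of these other cell types in the results below was not tested, and in bulk samples fewer cells of a type and less RNA per cell cannot be told apart. The P28 libraries include 2 that stand apart by their ribosomal RNA transcript Rn45s, hippocampus cKO replicate 2 at 0.594% of the summed signal and olfactory bulb control replicate 2 at 0.476%, against 13.7% to 38.0% in the other libraries.

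RefSeq's promoter table (build GRCm38.p6) holds 4 of the 6 genes, and the 250 bases before the listed start are shown for each of them because their time courses differ: between P1 and P14 Fxyd1 rose and Fxyd6 fell in every region, Atp1b1 rose in hippocampus and fell in olfactory bulb, and Atp1b3 rose in cortex and hippocampus. Capitals mark the letters GGGCGG (the GC box) or CCAAT on either strand.
Atp1b1, chr1:164458356-164458605, minus strand: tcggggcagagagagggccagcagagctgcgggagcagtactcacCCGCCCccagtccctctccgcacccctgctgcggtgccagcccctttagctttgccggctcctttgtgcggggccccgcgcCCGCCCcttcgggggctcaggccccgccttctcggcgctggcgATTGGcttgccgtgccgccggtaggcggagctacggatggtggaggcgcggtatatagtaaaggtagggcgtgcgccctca
Atp1b3, chr9:96364432-96364681, minus strand: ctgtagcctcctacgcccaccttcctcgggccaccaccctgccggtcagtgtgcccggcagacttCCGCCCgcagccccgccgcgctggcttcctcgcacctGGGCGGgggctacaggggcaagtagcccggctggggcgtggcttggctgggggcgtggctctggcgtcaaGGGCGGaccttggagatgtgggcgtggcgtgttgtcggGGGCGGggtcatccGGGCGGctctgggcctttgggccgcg
Fxyd1, chr7:31054854-31055103, minus strand: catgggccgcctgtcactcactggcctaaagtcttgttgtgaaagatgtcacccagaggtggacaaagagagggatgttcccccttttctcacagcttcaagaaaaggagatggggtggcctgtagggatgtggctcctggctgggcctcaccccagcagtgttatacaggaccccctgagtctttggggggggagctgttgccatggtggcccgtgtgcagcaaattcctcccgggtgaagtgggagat
Fxyd6, chr9:45369935-45370184, plus strand: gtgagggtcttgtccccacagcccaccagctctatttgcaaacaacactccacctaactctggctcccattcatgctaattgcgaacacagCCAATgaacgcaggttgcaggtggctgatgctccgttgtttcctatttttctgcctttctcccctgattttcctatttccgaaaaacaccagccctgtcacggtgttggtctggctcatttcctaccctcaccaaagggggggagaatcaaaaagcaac

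The table has no entry for Atp1b2 and Fxyd7. Atp1b1 and Atp1b3 each held 24 CG dinucleotides in the windows shown, more than 88.0% of the 32851 windows of the table, against 3 in Fxyd1 and 5 in Fxyd6, where the median of all windows was 6. The GC box occurred 2 times in Atp1b1 and 5 times in Atp1b3 and in 32.7% of all windows, and CCAAT occurred once each in Atp1b1 and Fxyd6 and in 33.8% of all windows. TATAAA (12.4% of all windows), TTGGCA (12.3%), ACAATG (10.7%) and TGACGTCA (1.55%), read on both strands, matched none of the windows shown. The Fxyd1 window lies inside the gene as GENCODE M21 draws it, before a later listed start. The bases just after that start matched no GENCODE M21 transcript of Fxyd1, unlike those of the other windows shown. Atp1b3 has a further listed start whose window is not shown. A match of letters is a description only, and the motifs were chosen with the expression values known.

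Atp1b2 (GENCODE M21, chr11:69599736-69605942, minus strand) encodes the beta 2 subunit, also known as the adhesion molecule on glia (AMOG), the beta subunit best known from astrocytes. It rose at every step in every region. In cortex the 3 P1 libraries held 1693, 1958 and 1938 normalized reads, the P7 libraries 6300, 6127 and 4893, and the P14 libraries 18957, 13732, 16600 and 19354. No 2 ages overlapped, which is a description only, since the share of all genes with separate ages was not counted. The mean at P14 was 9.21 times that at P1 (log2 change 3.19 ± 0.13 SE, limma adjusted p = 2.28e-10). In hippocampus the values at P1 were 750, 947 and 617, those at P7 were 3679, 3404 and 5170, and those at P14 were 13912, 14776 and 15599. The ages were again separate, with a mean 19.1 times as high at P14 as at P1 (log2 change 4.28 ± 0.18, adjusted p = 7.61e-09). In olfactory bulb Atp1b2 began at 244, 293 and 242, reached 1038, 1032 and 573 at P7, and stood at 7641, 8644 and 8137 at P14. That was a 31.3-fold rise from P1 to P14 (log2 change 4.97 ± 0.21, adjusted p = 3.55e-08).

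The rise of Atp1b2 in the olfactory bulb came mostly after P7. There the change from P7 to P14 exceeded that from P1 to P7 by 1.55 on the log2 scale (adjusted p = 0.0159), as 3.26 after 1.71. The summed astrocyte markers of the same libraries were 3245 to 4780 at P1, 7192 to 13300 at P7 and 53782 to 64481 at P14, and their part in the course of Atp1b2 was not tested. In cortex the steps were 1.63 and 1.57 and their difference was −0.06 (adjusted p = 0.877). The hippocampal steps were 2.40 and 1.88, with a difference of −0.52 (adjusted p = 0.382), while the astrocyte sum there was 7721 to 8496, then 27234 to 34651, then 65050 to 69853. The olfactory bulb difference lost its call under quantile normalization, at 0.59 (adjusted p = 0.314), and in a fit without a mean-variance trend (adjusted p = 0.0585), while under quantile normalization the cortical and hippocampal differences were called at −0.88 and −1.61.

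Atp1b1 (chr1:164437109-164458355, minus strand) encodes the beta 1 subunit, the most widely expressed beta subunit and the main one of neurons. Its mean was highest at P7 in all 3 regions and, in the olfactory bulb, ended far below where it began. In the olfactory bulb the P1 libraries held 1095, 876 and 885 normalized reads, the P7 libraries 2558, 1543 and 1462, and the P14 libraries 364, 265 and 387. Every P7 value lay above every P1 value and every P14 value below both. It rose by 0.92 from P1 to P7 (adjusted p = 0.0224), fell by 2.42 from P7 to P14 (adjusted p = 1.41e-05) and fell by 1.50 over the whole time (adjusted p = 1.81e-04) on the log2 scale. The rise rested partly on P7 replicate 1: without it the change was 0.67 (adjusted p = 0.0787), and it also lost its call without P1 replicate 2 or 3 (adjusted p = 0.0881 and 0.0910) and in the fit without a trend (0.0794).

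In hippocampus Atp1b1 stood at 480, 519 and 415 at P1. The P7 libraries held 945, 1093 and 1198, and those of P14 held 860, 808 and 831. P1 was below both later ages without overlap, and P14 was below P7 without overlap. The share of all genes whose ages did not overlap was not counted in any region. Separation of ages is therefore a description only, here and for the other genes. The change to P7 was 1.19 (adjusted p = 7.15e-05), the step to P14 was −0.37 and missed the threshold (adjusted p = 0.0573), and the level at P14 was above P1 by 0.83 (adjusted p = 3.28e-04). The step to P14 was called under quantile normalization, at −0.76 (adjusted p = 8.15e-04), and with a minimum mean of 100 (adjusted p = 0.0446). In cortex the P1 values were 758, 782 and 717, the P7 values 1203, 938 and 1075, and the P14 values 743, 753, 990 and 720. These P14 libraries lay among the P1 values apart from replicate 3, which overlapped P7. Atp1b1 rose in cortex by 0.50 to P7 (adjusted p = 0.00762), fell by 0.42 to P14 (adjusted p = 0.00928) and did not pass the test between P1 and P14 (0.08, adjusted p = 0.574). These cortical results depend on scaling: with TMM factors the step to P14 was −0.24 (adjusted p = 0.0952) and the change over the whole time 0.36 (adjusted p = 0.0121), and the median change of all genes between cortex P1 and P14 moved from −0.27 to 0.01. The step to P14 also missed the threshold with edgeR and DESeq2 (adjusted p = 0.0692 and 0.0803). Both of these called the change over the whole time, at 0.31 and 0.33 (adjusted p = 0.0347 and 0.0126). Without a stated best scaling, whether Atp1b1 in cortex was higher at P14 than at P1 stays undecided. Without P7 replicate 1 the step to P14 was −0.34 (adjusted p = 0.0542).

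The change of Atp1b1 differed between the intervals in each region, which by itself does not show a fall after P7. The second interval's change was below the first by 0.93 in cortex (difference −0.93 ± 0.21 SE, adjusted p = 0.00720), by 1.56 in hippocampus (−1.56 ± 0.23, adjusted p = 0.00417) and by 3.34 in olfactory bulb (−3.34 ± 0.38, adjusted p = 8.33e-04). Without P7 replicate 1 the cortical difference was −0.75 (adjusted p = 0.0518). Of the 12 neuron markers in olfactory bulb, 3 rose and none fell from P1 to P7, where 10.6% of all tested genes changed. From P7 to P14 none rose and 9 fell, where 47% of all changed. Their summed level there was 8699 to 9705 at P1 and 7741 to 10409 at P7. In cortex none rose and 4 fell from P1 to P7 (33.7% of all changed), and in hippocampus 1 rose and 3 fell (18.1%). From P7 to P14 none rose and 9 fell in each of these 2 regions. The part of the neuron markers in the Atp1b1 course was not tested. At its 3′ end Atp1b1 shares 192 exonic bases with Nme7 on the other strand, and reads of this overlap cannot be told apart without a stated strand setting. Nme7 itself stood at 32.6 to 125 normalized reads in the developmental tables.

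Atp1b3 (chr9:96332655-96364442, minus strand) encodes the beta 3 subunit, which is expressed at modest levels in many tissues. Over all developmental libraries it ranged only from 125 to 434 normalized reads. The cortical P1 libraries held 195, 184 and 198, those of P7 305, 337 and 338, and those of P14 434, 431, 426 and 343. The ages did not overlap, although P14 replicate 4 came close to the P7 values. The steps were 0.76 (adjusted p = 2.04e-04) and 0.32 (adjusted p = 0.0266), and the change over the whole time 1.08 (adjusted p = 1.28e-06), where the second step lost its call without P7 replicate 1 or without any 1 of P14 replicates 1 to 3 (adjusted p = 0.103 and 0.0588 to 0.0648), and in the fit without a trend (0.0535). The hippocampal values were 190, 147 and 125 at P1, 201, 183 and 213 at P7, and 332, 245 and 208 at P14, with neighbouring ages overlapping. Only the change from P1 to P14 passed the test there (0.75, adjusted p = 0.0140), and it did not without P1 replicate 3 (0.62, adjusted p = 0.0652). In olfactory bulb Atp1b3 held 193, 158.1 and 167, then 168, 179 and 164, then 284, 165 and 298. P14 replicate 2 lay among the earlier ages and no step passed the test (P1 to P14, 0.49, adjusted p = 0.0860), whereas edgeR and DESeq2 on the recovered reads called the P1 to P14 change at 0.60 and 0.61 (adjusted p = 0.0349 and 0.0182). Without P14 replicate 2 that change was 0.76 (adjusted p = 0.00223) and the step from P7 to P14 was 0.77 (0.00265), and the latter was also called with TMM, edgeR and DESeq2 (0.0456, 0.0337 and 0.0215).

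**Figure D1:**
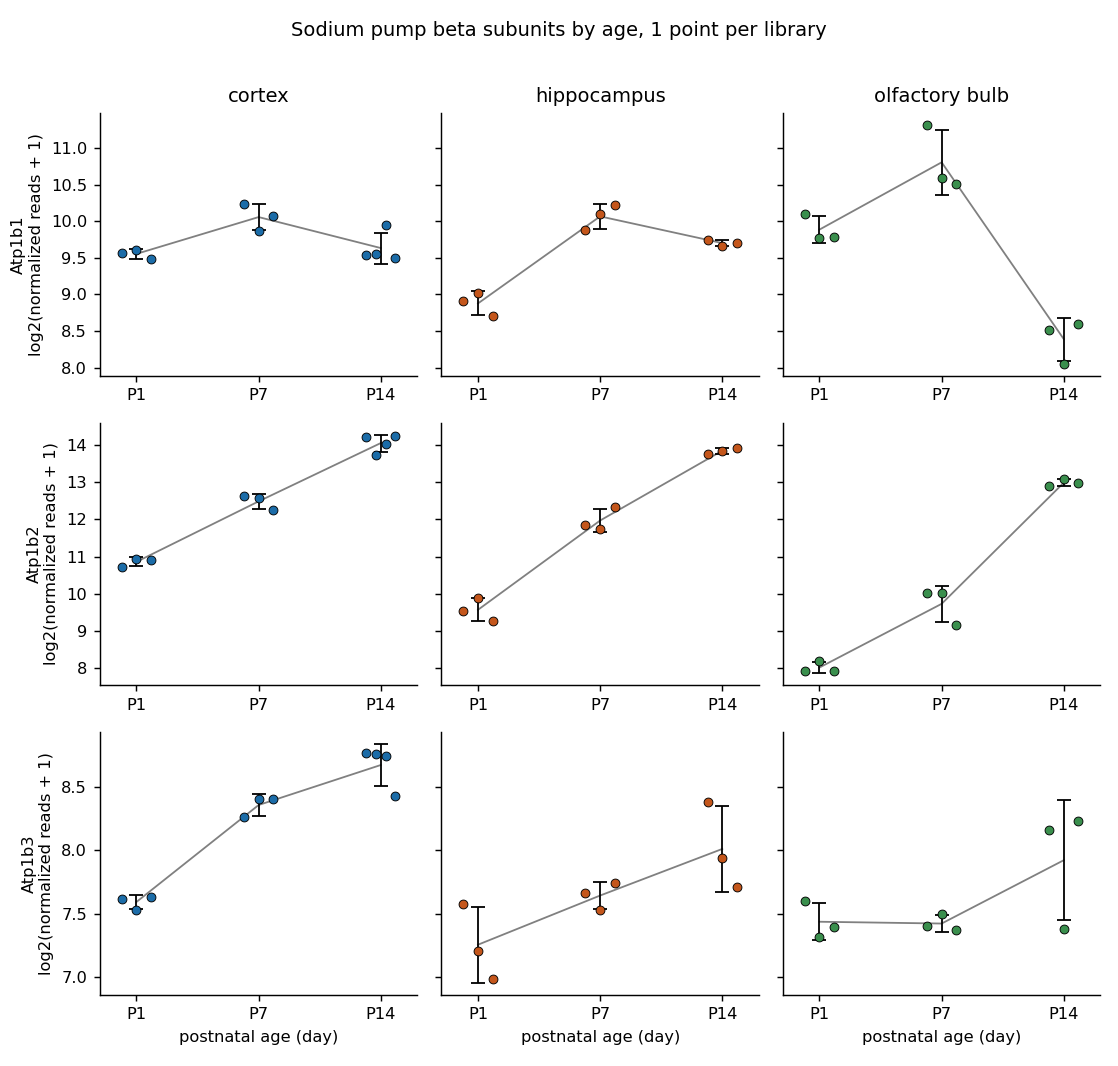
Beta subunit genes in astrocytes of 3 regions. Each point is 1 library, the y axis is log2(normalized reads + 1), the x axis postnatal age, and bars give the mean and SD of 3 libraries (4 at cortex P14); since each region's table was scaled on its own, heights compare within a panel. Atp1b2 climbs at every step, and Atp1b3 stays between 125 and 434. The mean of Atp1b1 is highest at P7, although its fall to P14 missed the threshold in hippocampus (limma adjusted p = 0.0573). In olfactory bulb Atp1b1 falls to 265 to 387 normalized reads at P14.

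Within a library the balance between the beta subunit genes changed with age, since a ratio of 2 genes does not depend on the library's size factor. The median ratio of Atp1b2 to Atp1b1 reads in cortex was 2.503 at P1, 5.24 at P7 and 21.9 at P14. The hippocampal medians were 1.56, 3.89 and 18.3. In olfactory bulb Atp1b1 was the more abundant at P1 and P7, with medians of 0.274 and 0.406, and Atp1b2 at P14, with a median of 21.01 (highest 32.7). The olfactory bulb therefore started on the other side of 1 and ended within the range of the cortical libraries (16.8 to 26.9), apart from 1 library above it. Per kilobase of exon, a scale on which different genes can be compared, Atp1b2 led the beta subunit genes in every cortical and hippocampal group of the developmental series. In olfactory bulb the order at P1 was Atp1b1 (median 343 per kilobase), then Atp1b2 and Atp1b3 (86.0 and 83.8), whose ranges overlapped. At P14 it was Atp1b2 (2863), then Atp1b1 and Atp1b3 (141 and 142.5), again with overlapping ranges.

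**Figure D2:**
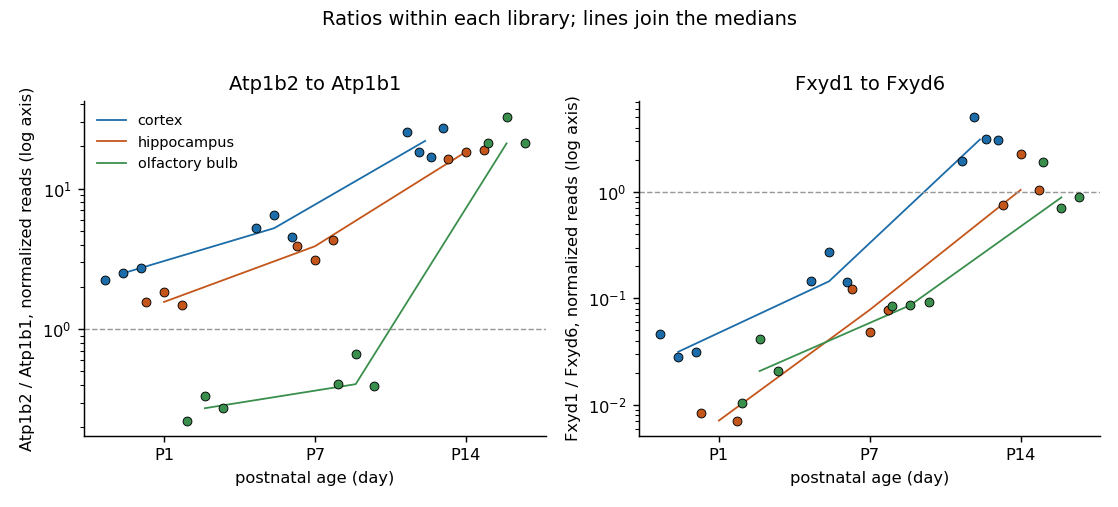
Ratios of normalized reads within each library, on a log axis, against postnatal age. Points are libraries and lines join the medians of a region; the dashed line marks equal levels, and 1 hippocampus P1 library with no Fxyd1 read is not drawn. Atp1b2 passes Atp1b1 between P7 and P14 in olfactory bulb, where the median goes from 0.406 to 21.01, and Fxyd1 approaches or passes Fxyd6 in every region at P14.

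Fxyd1 (chr7:31051678-31057199, minus strand) encodes phospholemman, a regulator of the pump that is itself controlled by phosphorylation and is best studied in heart muscle. It rose from low levels in each region. In cortex the P1 libraries held 37.2, 23.7 and 26.2 normalized reads, the P7 libraries 42.1, 59.5 and 36.3 and the P14 libraries 193, 167, 222 and 201. P1 and P7 overlapped and P14 stood clear of both. The first step was 0.64 (adjusted p = 0.0432), the second 2.09 (adjusted p = 4.51e-06) and the whole change 2.73 (adjusted p = 1.14e-07), a 6.74-fold rise. The first step lost its call under 4 planned settings, such as without a filter on low genes (adjusted p = 0.0633), and without any 1 of P1 replicates 2 and 3 and P7 replicates 1 and 2 (0.0698 to 0.192). The second step exceeded the first by 1.45 (adjusted p = 0.0157), which missed the threshold without P7 replicate 1 (adjusted p = 0.0667) or 3 (0.0955).

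The hippocampal P1 libraries held 7, 5 and 0 Fxyd1 reads, or 2.49, 2.23 and 0 normalized. At P7 the level was 16.3, 11.3 and 15.1, followed by 60.2, 158.8 and 87.8 at P14. All 3 ages were separate, with steps of 2.75 (adjusted p = 0.00899) and 2.66 (adjusted p = 0.00776), the second of which was lost with a pseudocount of 0.1 (adjusted p = 0.0989). The size of the first step depends on the pseudocount, since so few reads stand behind P1: it was 4.07 with 0.1 and 1.22 with 8. The summed level of 8 choroid plexus markers was in the same libraries 34.7 to 126 at P1 and 4190 to 8615 at P14, and its part in the Fxyd1 level was not tested. In olfactory bulb, where that sum was 49.5 to 109 at P1 and 75.5 to 248 at P14, Fxyd1 held 2.15, 8.81 and 4.41 normalized reads, then 14.1, 16.4 and 16.0, then 95.4, 35.8 and 65.3. The ages did not overlap. The step to P7 missed the threshold (1.58, adjusted p = 0.0784; DESeq2 on recovered reads called it, at 0.0244), the step to P14 passed it (1.90, adjusted p = 0.0111), and the rise over the whole time was 3.49 (adjusted p = 1.89e-04).

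Fxyd6 (chr9:45370185-45396159, plus strand) encodes phosphohippolin, a regulator named from its expression in the hippocampus. It was the only one of the 5 tested genes that fell in all 3 regions. In cortex it stood at 796, 844 and 832 at P1. The P7 libraries held 291, 220 and 255, and the P14 libraries 99.1, 32.7, 70.95 and 65.4. No ages overlapped, and the fall was shared between the steps (−1.69 and −2.01, adjusted p = 4.49e-04 and 4.01e-05). The P1 mean was 12.3 times that at P14 (log2 change −3.70 ± 0.26, adjusted p = 5.09e-08).

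In hippocampus Fxyd6 held 300, 313 and 288 at P1, 134, 233 and 194 at P7, and 79.5, 70.6 and 84.2 at P14. No 2 ages overlapped there. The fall over the whole time was called (−1.93, adjusted p = 2.28e-05), as was the second step (−1.22, adjusted p = 0.00180), while the first, −0.72 (adjusted p = 0.0418), lost its call without a filter (0.0547), without a trend (0.0779) and without any 1 of P1 replicates 1 to 3 or P7 replicates 1 and 3 (0.0909 to 0.188). In olfactory bulb it stood at 206, 212 and 212, then 166, 190 and 173, then 49.7, 51.0 and 73.6. P7 lay below P1 without overlap by a margin that did not pass the test (−0.25, adjusted p = 0.516), and nearly all of the fall came after P7 (−1.61, adjusted p = 8.81e-05). The second step was lower than the first by 1.35 (difference −1.35, adjusted p = 0.0233), and this call was lost when any 1 library of P1 or P7 was left out (adjusted p = 0.0595 to 0.105).

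The ratio of Fxyd1 to Fxyd6 reads was higher at each later age in every region. Its median went from 0.0315 through 0.145 to 3.10 in cortex, from 0.00712 through 0.0780 to 1.04 in hippocampus and from 0.0208 through 0.0865 to 0.887 in olfactory bulb. In cortex every P14 library had more Fxyd1 than Fxyd6 reads (lowest ratio 1.95), while the P14 libraries of the other regions lay on both sides of 1 (0.757 to 2.25 and 0.703 to 1.92).

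Fxyd7 (chr7:31042513-31051467, minus strand) encodes a brain regulator of the pump, and lies 211 bases from Fxyd1. It passed the filter on low values (a mean of at least 10 normalized reads) in no table and was not tested. The cortical P1 libraries held 7.67, 5.79 and 6.16 normalized reads, followed by 14.4, 3.87 and 11.8 at P7 and by 11.7, 3.77, 2.21 and 3.63 at P14, so the ages overlapped. The hippocampal P1 libraries had no read, which allows a level of up to 1.07 to 1.84 normalized reads (3 reads, counting error only), and the later values there ran from 0 to 11.8. In olfactory bulb 2 or 3 reads at P1 were followed by 2.97 to 19.7 normalized reads at P7 and 2.76 to 18.0 at P14. One library at each later age, P7 replicate 1 and P14 replicate 3, held most of these reads.

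**Figure D3:**
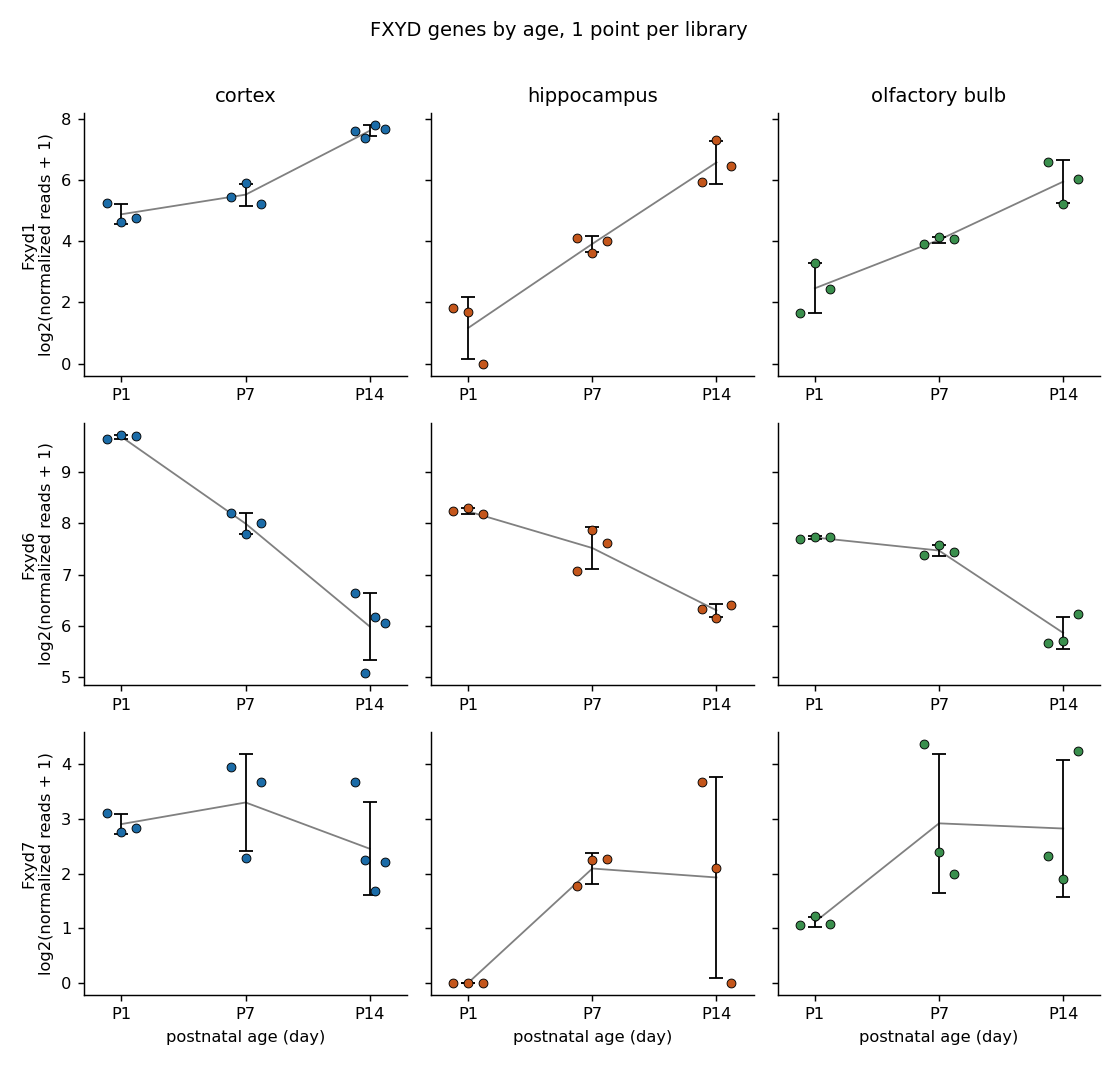
FXYD genes in astrocytes of 3 regions. Each point is 1 library on a log2(normalized reads + 1) scale against postnatal age, with the mean and SD of 3 libraries (4 at cortex P14); heights compare within a panel. Fxyd1 climbs, Fxyd6 falls in every region, in cortex from 796 to 844 down to 32.7 to 99.1 normalized reads, and Fxyd7 stays near the limit of detection.

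Set in order by median level per kilobase of exon, all 6 genes in cortex at P1 ran Atp1b2 (682), Fxyd6 (464), Atp1b1 (294), Atp1b3 (97.6), Fxyd1 (25.4) and Fxyd7 (8.89), with no overlap between neighbours. By cortex P14 Fxyd6 had moved from the second place to the fifth: Atp1b2 (6256), Atp1b1 (290), Atp1b3 (215), Fxyd1 (191), Fxyd6 (38.0) and Fxyd7 (5.34), where only Atp1b3 and Fxyd1 overlapped. In hippocampus at P14 the order was the same, with Atp1b3 (123) and Fxyd1 (85.1) again overlapping, and Fxyd6 stood at 44.4. At P28 the level per kilobase of Fxyd1 in hippocampus was above that of Atp1b3 in every library. The Fxyd1 medians were 394 in control and 304 in cKO, against 131 and 145.6. These libraries held choroid plexus sums of 71591 to 146841 in controls and 13755 to 131346 in cKO. The part of the choroid plexus in this order was not tested. In cortex at P28 the Fxyd1 median was below that of Atp1b3, in control (88.5 and 118.8) and in cKO (118.1 and 126). In olfactory bulb it was below in control (103.6 and 154.2) and above in cKO (210 and 148.95).

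Counted over the 5 tested genes, all 5 passed the test from P1 to P7 in cortex, where 33.7% of all tested genes did, 4 in hippocampus (18.1% of all) and 2 in olfactory bulb (10.6%). From P7 to P14 the cortex had 5 (49.8% of all), hippocampus 3 (30.1%) and olfactory bulb 4 (47%). From P1 to P14 cortex had 4 (64.4%), hippocampus 5 (49.5%) and olfactory bulb 4 (56.1%), so that the shares of all genes that changed were large as well. The difference between the intervals was called for 2 genes in cortex (23% of all), for 1 in hippocampus (5.99%) and for 3 in olfactory bulb (16.1%). The median change from P1 to P14 was 1.08, 0.83 and 0.49 for the 5 genes in the 3 regions, against −0.27, −0.29 and −0.24 for all tested genes.

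**Figure D4:**
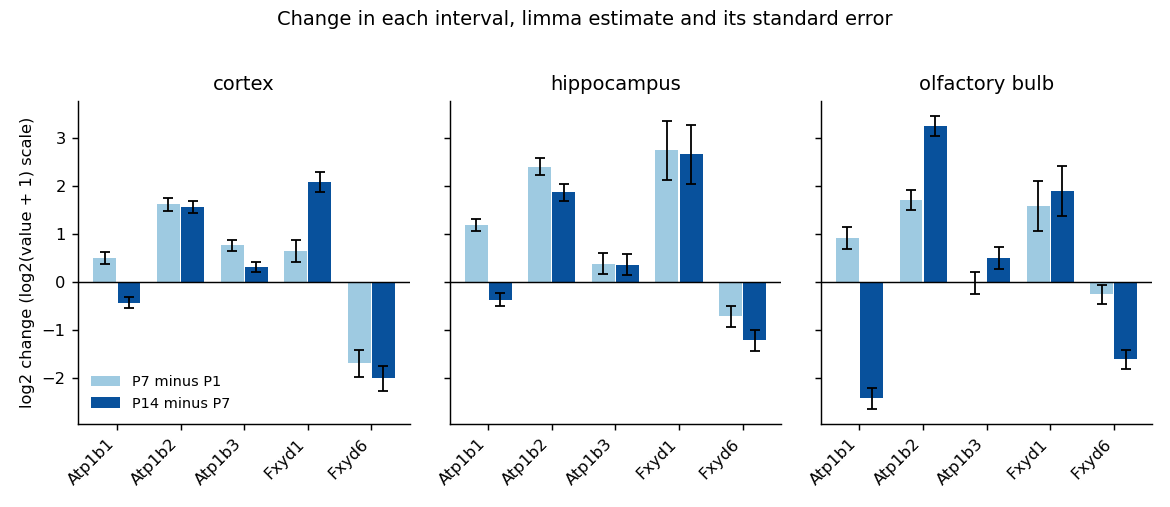
Estimated log2 change of each tested gene from P1 to P7 (light) and from P7 to P14 (dark), with bars from 0 and the standard error of limma's fit, by region. The Atp1b1 estimate changes sign between the intervals in every region, most in olfactory bulb (0.92, then −2.42). Its fall to P14 missed the threshold in hippocampus (limma adjusted p = 0.0573). In cortex the fall lost its call with TMM scaling, edgeR and DESeq2. Fxyd6 is below 0 in both intervals.

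The genes whose course was most like that of each member were sought among 4148 genes with a mean of at least 100 in each developmental table. Genes of lower level could therefore not be found. The measure was the lowest Pearson correlation over these tables (10, 9 and 9 libraries, which share age groups, so the values describe only these libraries). For Atp1b2 the most alike were Tspan7, a tetraspanin (lowest r = 0.995), Glul, glutamine synthetase (0.994), and Aldh5a1, which acts in GABA breakdown (0.994). Fxyd1 was followed by Pon2 (0.967), Pbxip1 (0.952) and Nwd1 (0.952). For Fxyd6 they were Kmt2a, a histone methyltransferase (0.954), Adamts3 (0.954) and Inpp5f (0.952). Atp1b1 had looser companions in Ncam2, a neural adhesion molecule (0.809), Cdk14 (0.759) and Prkcb (0.632), and Atp1b3 in Uba3, Rfc1 and Adipor1 (0.879 to 0.855). The best value for Fxyd7 was 0.605, for Atxn1.

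Genes that work beside the pump were taken as 3 lists and compared between P1 and P14. Of 6 genes of glial adhesion and junctions, 5 rose and none fell in each region: Hepacam, the cell adhesion molecule GlialCAM (2.03, 2.61 and 3.996, in the order cortex, hippocampus, olfactory bulb), Mlc1, its membrane partner (2.26, 3.23 and 3.99), the connexins Gja1 (3.46, 4.35 and 4.84) and Gjb6 (7.48, 7.50 and 5.28), and Cldn10, a claudin (3.22, 3.88 and 4.84). Clcn2, a chloride channel, did not pass the test (0.61, −0.07 and 0.17). Of 16 exchangers, cotransporters and channels that use or shape the ion gradients, 9 rose and 6 fell in cortex (16 tested), 9 rose and 4 fell in hippocampus (15 tested) and 9 rose and 2 fell in olfactory bulb (16 tested). Those that rose included the glutamate transporter Slc1a2 (5.14, 5.87 and 5.17) and the potassium channel Kcnj10 (3.73, 4.22 and 6.44). The sodium-calcium exchanger Slc8a1 fell in cortex and hippocampus (−5.00 and −4.03), and its change in olfactory bulb was 0.0054 (adjusted p = 0.988).

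These counts stand beside 64.4%, 49.5% and 56.1% of all tested genes that changed in the 3 regions. Of 8 calcium pumps and other P-type pumps, 7 were tested, and the share of them that changed in cortex and hippocampus was near that of all genes: 2 rose and 3 fell in cortex, 3 rose and 1 fell in hippocampus, and 2 rose and 1 fell in olfactory bulb. The list medians of the change were 2.74, 3.55 and 4.42 for adhesion and junctions, 1.42, 1.95 and 2.09 for exchangers and channels, and −0.34, 0.63 and 0.02 for the P-type pumps, against −0.27, −0.29 and −0.24 for all tested genes. Of 5 further genes of the pump and FXYD families, Atp1b4, Fxyd2, Fxyd3, Fxyd4 and Fxyd5, none passed the filter in any table.

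At P28 the question was whether loss of Gabbr1 changes these genes, and none of the 5 tested passed the test in any region. Gabbr1 itself checked the labels: in cortex it stood at 1440 ± 475 (SD, n = 4) in controls and 133 ± 55.7 (n = 4) in cKO (log2 change −3.45, adjusted p = 4.40e-05), and it was the 1 gene called there (0.00982% of those tested). In hippocampus and olfactory bulb no gene was called (0%), and Gabbr1 was lower in every cKO than in every control library (−1.84 and −1.48, unadjusted p = 9.37e-04 and 0.00106, adjusted p = 0.936 and 0.877). At an unadjusted p under 0.05, 0 of the 5 genes passed in cortex (2.17% of all tested), 0 in hippocampus (2.54%) and 1 in olfactory bulb (3.02%).

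In cortex Atp1b2 held 10659, 14288, 10304 and 11347 normalized reads in controls and 12525, 12352, 14972 and 10050 in cKO. The groups overlapped throughout (0.10 ± 0.20 SE, adjusted p = 1.000). Atp1b1 stood at 543, 669, 1060 and 997 in controls and 712, 746, 1043 and 1131 in cKO, and Fxyd6 at 10.6, 3.50, 30.7 and 27.0 against 5.61, 1.05, 5.59 and 26.9. The 3 libraries with the higher library numbers, control replicates 3 and 4 and cKO replicate 4, were the 3 highest for Fxyd6 and among the 4 highest for Atp1b1. They also held the highest sums of mature oligodendrocyte markers (8720 to 14666 against 2743 to 6209) and of microglia markers (700 to 1805 against 157.4 to 212), whose part was not tested. With a covariate that marked those 3 libraries, limma changes were 0.34 for Atp1b1 (adjusted p = 0.763) and −0.48 for Fxyd6 (adjusted p = 0.920). Without it they were 0.18 and −1.05. In cortex the same 3 libraries are those labelled tamoxifen, so library number and that label cannot be told apart. Atp1b3 (176 to 300) and Fxyd1 (84.4 to 148.95) overlapped between the groups as well. Fxyd7 held 0 to 9 reads.

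In hippocampus the controls held 5833 and 8189 normalized reads of Atp1b2 and the cKO libraries 10480, 31486, 11144 and 8046. Replicate 2, the library with little Rn45s, stood far above the rest, and replicate 4 fell below the higher control. The change was 0.92 ± 0.54 (adjusted p = 0.936), and 0.50 without replicate 2. Atp1b1 was 2106 and 1167 in controls and 1173, 1106, 1277 and 1931 in cKO. Its 2 highest libraries, control replicate 1 and cKO replicate 4, were also those with the highest summed choroid plexus markers, 146841 and 131346 against 13755 to 75455 in the other 4. Atp1b2 was at its 2 lowest levels in those same libraries and highest in cKO replicate 2, where the choroid plexus sum was lowest. The summed astrocyte markers were 29431 and 38354 in controls and 49413, 63614, 43274 and 37642 in cKO. They were thus also lowest in those 2 libraries and highest in cKO replicate 2. The part of these markers was not tested.

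Fxyd1 in hippocampus stood at 487 and 326 in controls and at 346, 316, 308 and 311 in cKO. Control replicate 1 stood above the rest, and the other control lay among the cKO libraries (−0.32, adjusted p = 0.936). The change was −0.03 without control replicate 1, the library with the highest choroid plexus sum, and −0.61 without control replicate 2. Atp1b3 held 242 and 281 against 279, 529, 302 and 266, again highest in the library with little Rn45s (0.34 with that library, 0.11 without it). Fxyd6 was low in both groups (3.91 and 21.4 against 4.33 to 28.5), and Fxyd7 held 0 to 5 reads.

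In olfactory bulb Fxyd1 held 107, 81.7 and 138 normalized reads in controls and 217, 222 and 177 in cKO. Every cKO library was above every control, by 0.93 ± 0.30 on the log2 scale (unadjusted p = 0.0105), but the difference did not pass the adjustment over all genes (adjusted p = 0.877), and the groups of 10% of all tested genes did not overlap. The summed level of 5 mural cell markers was 241, 388 and 592 in controls and 591, 522 and 530 in cKO, and that of 5 olfactory ensheathing markers 251, 529 and 1251 against 673, 544 and 1187; their part was not tested. Atp1b2 held 9319, 16543 and 7380 in controls against 10788, 9992 and 10236 in cKO. Control replicate 2 is the library with little Rn45s, and the cKO libraries lay within the span of the controls. Atp1b1 was 703, 609 and 1063 against 857, 1144 and 1071 (0.40, adjusted p = 0.877; 0.23 without control replicate 2 and 0.63 without control replicate 3). Atp1b3 (259 to 361 against 273 to 333) and Fxyd6 (6.89 to 95.3 against 14.9 to 78.96) overlapped, and Fxyd7 held 0 to 5 reads.

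**Figure D5:**
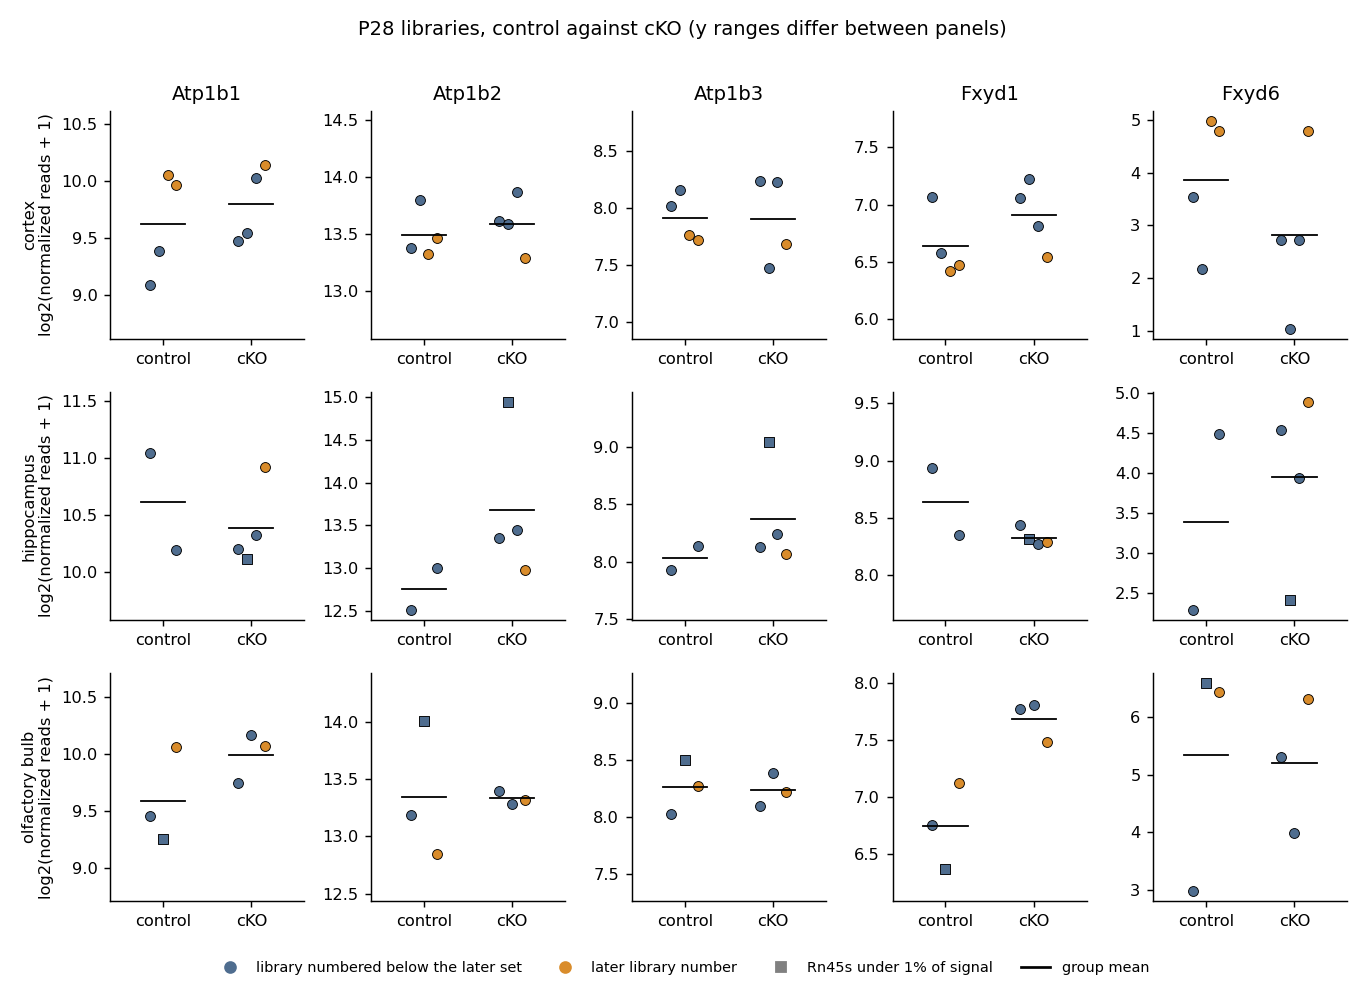
The 5 tested genes at P28, 1 point per library on a log2(normalized reads + 1) scale, with black lines at the group means; orange marks the higher library numbers and squares the 2 libraries with little Rn45s, and y ranges differ between panels. Control and cKO libraries overlap in every panel except Fxyd1 in olfactory bulb (81.7 to 138 against 177 to 222), and the squares are the highest points for Atp1b2 in hippocampus and olfactory bulb.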

How the data were processed

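The deposited tables hold the authors' normalized read counts, a signal made by dividing each library's reads by 1 size factor. The submitters' processing notes name FastQC, MultiQC, STAR 2.5.0a, DESeq2 1.20.0 and build mm10; the counting program, annotation and strand setting are not given in the sources used here. Per the labels' protocols, libraries came from picogram to nanogram amounts of RNA with the Trio RNA-seq kit. In 5 of the 6 tables, 27 gene symbols damaged into dates were restored from row order. No column belonged to another sample.

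Values were tested as log2(value + 1) with limma 3.58.1 (trend, moderated across genes, Benjamini-Hochberg over all tested genes, threshold 0.05) for genes with a mean of at least 10 in the table (R 4.3.3). Fold changes on this scale understate those of low genes. The scripts were tested on simulated data. Whole reads were recovered for 47 of 48 libraries (tolerance 0.02 of a read), which gave the depth and the edgeR 4.0.16 and DESeq2 1.42.0 alternatives; the remaining one, in the olfactory bulb P28 table, had a step too near 1. Replicate numbers follow accession order and pair nothing. Alternatives were other pseudocounts, filters, scalings and fits, and leaving out each library.

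Named genes are the 6 members, Gabbr1, the related lists and the 3 genes most like each member, with predicted genes left out. The members and lists were chosen with earlier results of these data known. Of the list of 9 other sodium pump and FXYD genes, 4 are not reported here; they were left out as possibly withheld, after their values had been seen, so counts for that list cover 5.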

Additional observations from a re-analysis of the deposited data

Results flagged for a closer look

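In groups of 4 libraries, of which there were 4, each of the 6 genes was examined (24 combinations of gene and group). The gap of the highest or lowest library to its neighbour was divided by the range. By Dixon's criterion 5 stood apart, where chance gives about 1 in 20 combinations. Genes of the same library are not independent. In cortex at P14, Atp1b1 in replicate 3 was 990 normalized reads against 720 to 753 in the others, Atp1b3 in replicate 4 was 343 against 426 to 434, and Fxyd7 in replicate 1 was 11.7 against 2.21 to 3.77. In hippocampus P28 cKO replicate 2, Atp1b2 was 31486 and Atp1b3 was 529, against 8046 to 11144 and 266 to 302 in the other cKO libraries. That library held 0.594% of its signal in Rn45s, and the part of this in its values was not tested.

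Atp1b1 changed from P1 to P14 in opposite directions in 2 regions, with no overlap between ages in either: a log2 change of 0.83 for hippocampus and of −1.50 for olfactory bulb. The tables were scaled separately and the difference between the regions was not tested. The share of all genes whose ages did not overlap was not counted.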

How the results depend on the processing

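Of 1242 alternative values for single genes, 1138 kept their sign and their side of the threshold, 41 lost a call, 17 gained one and 46 changed sign; the sign changes were of values that had no call. Of 251 counts, 243 stayed within 1.5 times the reported count. The number of the 5 genes with unequal intervals in hippocampus was 2 under quantile normalization, and the number changed from P1 to P7 in olfactory bulb was 1 without a trend. Leaving out 1 library gave 3 to 5 genes for the cortical step from P7 to P14, 0 to 2 for unequal intervals in cortex (0 without P7 replicate 1, 1 without P7 replicate 3) and 1 to 2 for the olfactory bulb step from P1 to P7. Sign changes were as follows. The difference between intervals was 0.0251 (TMM) and 0.0265 (DESeq2) for Atp1b2 in cortex, 0.0068 (TMM), 0.0642 (edgeR) and 0.073 (DESeq2) for Atp1b3 in hippocampus, and 0.9983 (pseudocount 8) and 1.7127 (quantile) for Fxyd1 in hippocampus. At P28 the change in cKO against control was −0.1055 for Atp1b2 in cortex among the higher library numbers alone, an alternative chosen after seeing the data. For Atp1b3 in cortex this change was 0.0239 (edgeR) and 0.0171 (DESeq2). In olfactory bulb it was 0.0285 (TMM) and 0.1291 (quantile) for Atp1b2 and 0.0135 (TMM) and 0.0501 (quantile) for Atp1b3. The cause was not tested.

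Leaving out 1 library moved the value across 0 within these ranges: from −0.0258 to 0.1269 for Atp1b1 in cortex from P1 to P14; for the interval difference, from −0.2876 to 0.0769 for Atp1b2 in cortex, from −0.2058 to 0.1311 for Atp1b3 and from −0.4589 to 0.4956 for Fxyd1 in hippocampus, and from −0.0947 to 0.7243 for Fxyd1 in olfactory bulb; from −0.075 to 0.0677 for Atp1b3 in olfactory bulb from P1 to P7. At P28 the ranges were −0.0018 to 0.3194 for Atp1b1 and −0.1212 to 0.1328 for Atp1b3 in cortex, −0.6548 to 0.1963 for Atp1b1 and −0.5373 to 1.6491 for Fxyd6 in hippocampus, and −0.265 to 0.3173 for Atp1b2, −0.1493 to 0.0878 for Atp1b3 and −1.3088 to 0.4962 for Fxyd6 in olfactory bulb. Where this left 1 hippocampal control, that library was assumed to vary like the others.

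TMM scaling turned 2843 higher and 4765 lower genes between cortex P1 and P14 into 3819 and 3640. No paired analysis was possible because the labels give no replicate numbers. Count tests were not run on the olfactory bulb P28 table. Depth limits Fxyd7 and the early levels of Fxyd1, which rest on 0 to 32 and 0 to 20 reads per library in hippocampus and olfactory bulb.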
